A study of Mus musculus with 4 samples.

Results

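The genes described are 9 genes of late neutrophil maturation, Mmp9, Mmp8, Retnlg, Trem1, Slpi, Fpr1, Fpr2, Padi4 and Il1b, measured in mouse LSK cells. They were taken as all probes whose symbol in the authors' deposited table is one of these names, which gave 10 of the 55677 probes on the array (9 of 19470 kept genes), 2 for Padi4 and 1 for each other gene. LSK cells are bone marrow cells positive for Sca-1 and c-Kit and negative for lineage markers, a fraction rich in stem cells and early progenitors of the blood. RNA of LSK cells labelled EZH1 knockout was hybridised to 2 arrays, and RNA of control LSK cells to 2 arrays, all from the C57Bl/6J strain. The genotype of the control animals, the deleted part of the gene, the age of the animals and whether replicates came from separate animals are not stated in the sources, so p-values here cover the spread of these 4 arrays alone, which could be technical. Per the labels' protocols, 0.1 to 5 ng of RNA were amplified over 16 to 19 cycles before labelling with Cy3.

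The 75th percentile of intensity ran from 1095 to 1690 in knockout cells and from 1531 to 1594 in control cells. Of 4 Ezh1 probes the brightest had 2069 and 3730 in knockout cells and 2658 and 2620 in control cells, and the log2 fold changes of the 4 ran from -1.15 to 0.27, none past the threshold. A probe outside the deleted part would check nothing, so these values do not settle the labels, and knockout stands throughout for the label.

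Neutrophils fill their granules in sequence as they mature. Proteases and peroxidase of the primary granules come at the promyelocyte stage, lactoferrin and other specific granule proteins at the myelocyte stage, and gelatinase (Mmp9) in the granules made last, in metamyelocytes and band cells. Receptors that let the cell sense bacteria, such as the formyl peptide receptors, and enzymes of the activated cell, such as Padi4, also belong to the late programme. Stem and progenitor cells are not known for making these granules. That does not extend to each gene of the programme: the brighter Padi4 probe had 3079 and 3199 in control cells.

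No member was past the threshold of limma over all probes (adjusted p under 0.05), and neither was any other probe of the array (0 of 43759, 0% called; 2513 probes, 5.74%, had an unadjusted p under 0.05; lowest adjusted p 0.780). What follows gives sizes and spreads, and "higher" or "lower" describes these arrays. Mean signal was higher in knockout cells for 7 of the 9 genes, against 52% of all kept genes. Among them, 5 had both knockout arrays above both control arrays: Mmp9, Retnlg, Il1b, Mmp8 and Slpi. Over all kept genes that share was 17.5%. Padi4 had both knockout arrays below both controls, where the share was 21% over all kept genes and 31.5% among kept genes of like mean signal. For Trem1, Fpr1 and Fpr2 the arrays of the groups overlapped at this scaling, which was not so for Fpr1 and Fpr2 under the 3 others tried. The median log2 fold change of the 9 genes, knockout minus control, was 0.97, against 0.03 over all 19470 kept genes. An unadjusted p under 0.05 was found for 4 of them (Mmp9, Retnlg, Slpi and Mmp8), against 4.73% of all kept genes. A difference of at least 2-fold without overlap was found for 4 (Mmp9, Retnlg, Il1b and Mmp8), against 5.31%. By role, the 4 genes grouped as enzymes and secreted proteins (Mmp9, Mmp8, Retnlg and Slpi) were all higher without overlap. Their median log2 fold change was 1.80. None of the 3 receptors was higher without overlap, with a median of 0.46. Padi4, also an enzyme, and Il1b, also secreted, were each set apart from that group. The members were chosen with these results known, and the grouping by role was not fixed beforehand, so the counts are descriptions. All 10 probes passed the filter on dim signals. Mmp9 passed it through the knockout arrays alone, the group where it is high (detected on 2 of 2 knockout and 1 of 2 control arrays). It stands in each of the counts of higher members above.

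**Figure D1:**
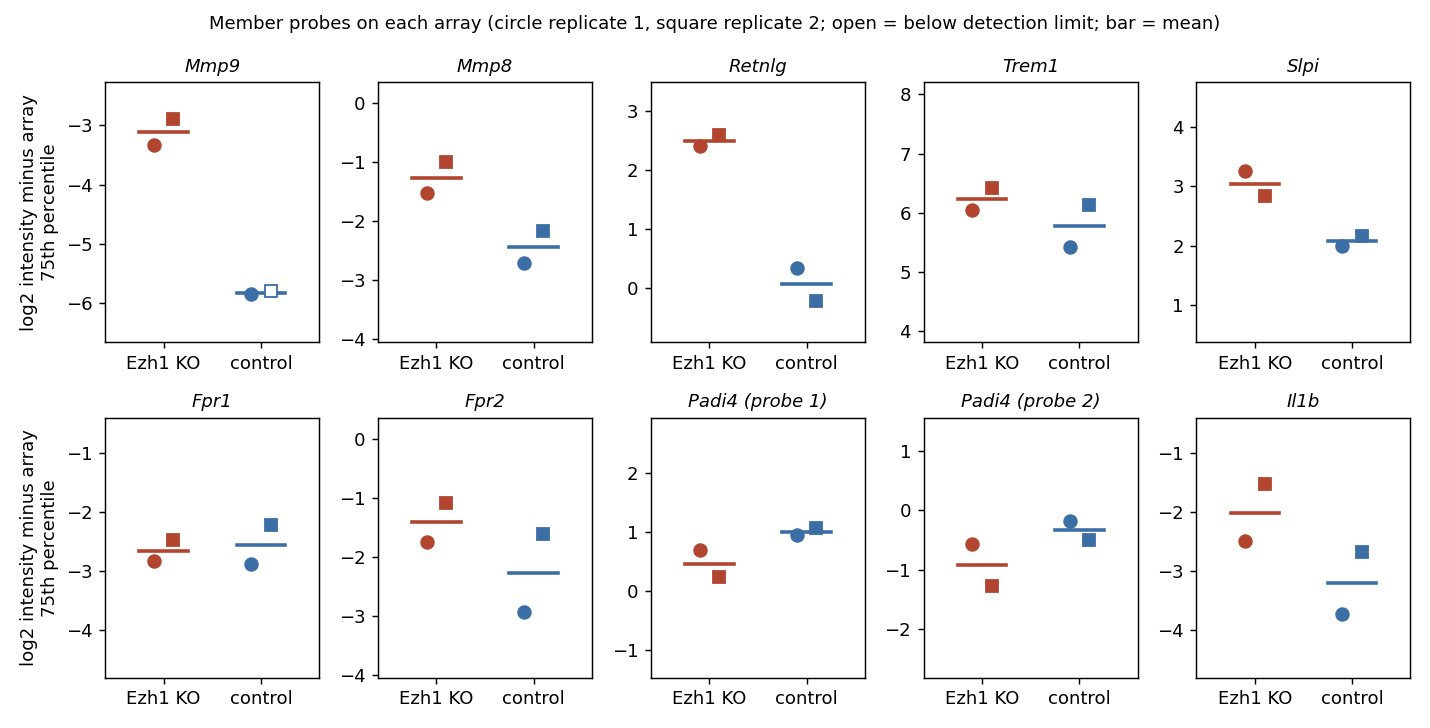
Log2 intensity minus the array's 75th percentile (y axis, one panel for each member probe, each spanning the same range) for the 2 Ezh1 knockout arrays (red, left) and the 2 control arrays (blue, right). Circles are replicate 1, squares replicate 2, bars the group mean, and the open square is a value below the detection limit. Mmp9 and Retnlg show the widest gaps between the groups, and Trem1, Fpr1 and Fpr2 overlap.

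Mmp9 encodes gelatinase B, the metalloproteinase that names the gelatinase granules. Its probe had intensities of 108.8 and 227.3 in knockout cells, against 27.66 and 27.22 in control cells. Both knockout values were above both control values, and the second control value was below that array's detection limit of 57.6 (the 20th percentile of its probes), so Mmp9 was detected on 2 of 2 knockout and 1 of 2 control arrays. On the scaled log2 axis it was -3.11 ± 0.31 in knockout cells and -5.83 ± 0.02 in control cells (SD, n = 2 each). The log2 fold change was 2.72 (6.58-fold, 95% interval 1.88 to 3.55, limma adjusted p = 0.780). The probe lies in the dimmest of 4 equal bins of kept genes by mean signal, where the median log2 fold change was 0.58 and 20.5% of genes were higher without overlap. With 50 added to each intensity before the logarithm, which compresses dim signals, the Mmp9 difference was 1.63, so the size of its fold depends on how the dim control signal is treated.

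Mmp8 encodes neutrophil collagenase, stored in the granules of maturing neutrophils. Its intensities were 379.1 and 837.1 in knockout cells, against 243.6 and 340.7 in control cells. The groups did not overlap, with 0.64 on the scaled log2 axis between the lower knockout and the higher control array. Its log2 fold change was 1.17 (2.25-fold, 95% interval 0.12 to 2.21, limma adjusted p = 0.780). It lies in the next bin, where the median was 0.06.

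Retnlg encodes resistin-like gamma, a secreted protein of the resistin family that is abundant in mouse neutrophils. Its intensities were 5806 and 10211 in knockout cells, against 2029 and 1326 in control cells. It is in the brightest bin, where the median log2 fold change was -0.05 and 1.68% of genes were at least 2-fold higher without overlap. The scaled log2 value was 2.50 ± 0.13 in knockout cells and 0.07 ± 0.39 in control cells (SD, n = 2 each). The groups were 2.06 apart at their nearest arrays. The log2 fold change was 2.43 (5.39-fold, 95% interval 1.50 to 3.36, limma adjusted p = 0.780). The other resistin genes differed less. Resistin itself (Retn) had 2402 and 3689 in knockout cells and 2481 and 3093 in control cells, a log2 fold change of 0.30 (95% interval -0.50 to 1.10).

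Slpi encodes secretory leukocyte peptidase inhibitor, which blocks neutrophil elastase and cathepsin G. Its intensities were 10513 and 12020 in knockout cells, against 6357 and 6857 in control cells. Both knockout arrays were above both controls, 0.67 apart at the nearest. Its log2 fold change was 0.97 (1.96-fold, 95% interval 0.12 to 1.82, limma adjusted p = 0.780). Of the proteases it inhibits, elastase (Elane) had a log2 fold change of 1.03 (95% interval 0.32 to 1.73) and Ctsg one of 0.59 (-0.12 to 1.30).

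Il1b encodes interleukin-1 beta, an inflammatory cytokine made by activated myeloid cells. Its intensities were 195.1 and 585.1 in knockout cells, against 120.8 and 239.2 in control cells. After scaling the groups did not overlap, but only 0.19 lay between them, and arrays of one group differed by 0.96 (knockout) and 1.04 (control). The log2 fold change was 1.19 (2.28-fold), and its interval spans 0 (95% interval -0.43 to 2.81, limma adjusted p = 0.780). Of 9 other kept genes of the interleukin-1 axis 3 were higher, with a median of -0.09. Over the alternatives this median ranged from -0.42 without EZH1 knockout replicate 1 to 0.15 without EZH1 knockout replicate 2, and it was -0.04 without control replicate 1. Nlrp3, the sensor of the inflammasome that matures the cytokine, was 2.46-fold higher (log2 95% interval 0.07 to 2.52). Expression of the receptor Il1r1 was 1.57-fold lower (-1.38 to 0.07), and Il1rn, which encodes the receptor antagonist, had a log2 fold change of 0.69 (-0.08 to 1.46).

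The 3 receptors had smaller differences than the 4 genes grouped as enzymes and secreted proteins, which was not tested. Whether the arrays overlapped for the receptors depended on the scaling. Trem1, a receptor that amplifies inflammatory signals through the adaptor Tyrobp, had intensities of 72695 and 144231 in knockout cells, against 68471 and 107246 in control cells. One control array was above one knockout array after scaling, and the log2 fold change was 0.46 (95% interval -0.62 to 1.53, limma adjusted p = 0.783). One probe carries this gene, and its brightness on all 4 arrays is no measure of transcript number. Tyrobp had a log2 fold change of 0.69 (95% interval -0.11 to 1.49) and the related receptor Trem3 one of 0.84 (0.02 to 1.66).

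Fpr1, a receptor for formylated bacterial peptides, had 153.4 and 304.0 in knockout cells, against 216.9 and 325.9 in control cells. Its log2 fold change was -0.10 (95% interval -1.14 to 0.94, limma adjusted p = 0.929), the smallest of the members in absolute size. Leaving out EZH1 knockout replicate 1 gave 0.08, and leaving out control replicate 2 gave 0.22, so its sign depends on single arrays. Under each of the 3 other scalings both knockout arrays were below both controls, with log2 fold changes from -0.40 to -0.27 and intervals that include no change. The median of all kept genes ran from -0.19 to -0.04 under those scalings. The interval leaves room for a difference of about the size seen for Slpi in the lower direction, or just short of it in the higher.

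Fpr2, its paralogue with a broader range of ligands, had 328.1 and 795.7 in knockout cells, against 208.6 and 500.0 in control cells. The higher control array was above the lower knockout array, and the control arrays differed by 1.32 on the scaled log2 axis. The log2 fold change was 0.86 (95% interval -0.81 to 2.54, limma adjusted p = 0.780). It was 0.20 without control replicate 1 and 1.52 without control replicate 2. The difference between Fpr1 and Fpr2 was not tested. Probes of 2 further members of the family (Fpr-rs3 and Fpr-rs6) were kept, with log2 fold changes of 1.04 and 0.28 and intervals that include no change, and cross-hybridisation between these related genes was not tested.

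Padi4 encodes peptidylarginine deiminase 4, which citrullinates histones and is needed for neutrophil extracellular traps. Its brighter probe (A_55_P2073169) had 1771 and 1984 in knockout cells, against 3079 and 3199 in control cells. The other probe (A_52_P514061) had 737.8 and 695.2 in knockout cells, against 1418 and 1083 in control cells. Both probes had both knockout arrays below both controls, by 0.26 and 0.07 at the nearest arrays after scaling. Their log2 fold changes were -0.54 (1.46-fold lower, 95% interval -1.40 to 0.31) and -0.59 (1.51-fold lower, -1.66 to 0.48), each with a limma adjusted p of 0.780. At the 75th percentile scaling no other member was lower without overlap. The brighter Padi4 probe lies in bin 3 counted from the dimmest. There the median log2 fold change was -0.15 and 31.5% of genes were lower without overlap. Centring arrays on their medians made the dimmer Padi4 probe overlap. The 3 other kept members of the family, Padi1, Padi2 and Padi3, had log2 fold changes of 0.17, 0.44 and 0.57, each with an interval that includes no change.

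**Figure D2:**
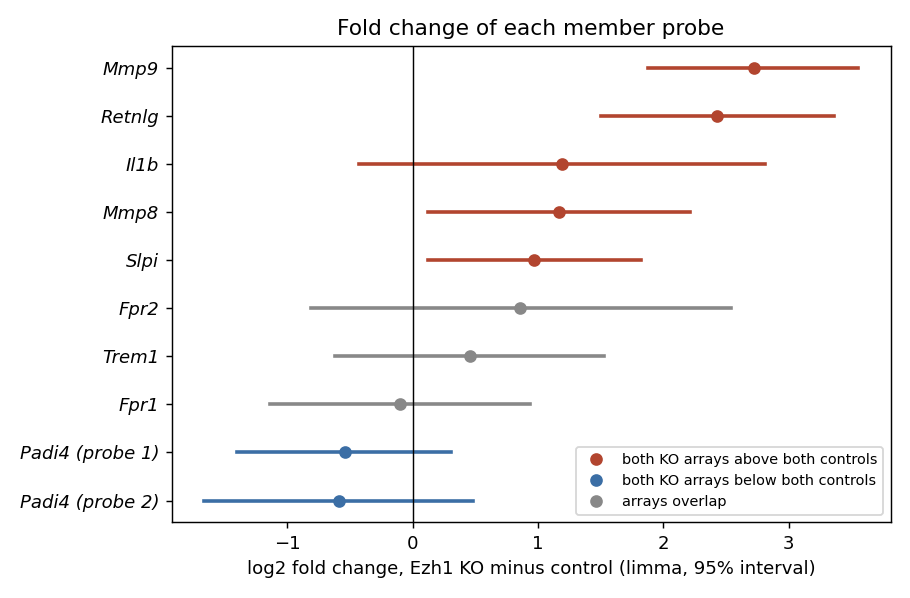
Log2 fold change of each member probe, knockout minus control (x axis), with limma's 95% interval. Red marks probes with both knockout arrays above both controls, blue both below, grey overlap; the intervals of Mmp9, Retnlg, Mmp8 and Slpi lie above 0 before any adjustment for the number of probes.

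Single arrays moved Mmp9 and Retnlg less, relative to their size, than Fpr2 and Trem1. With 1 array left out at a time, the log2 fold change ranged from 2.50 to 2.94 for Mmp9 and from 2.15 to 2.71 for Retnlg. Mmp8 ranged from 0.90 to 1.44, Slpi from 0.75 to 1.18 and Il1b from 0.67 to 1.71. Fpr2 ranged from 0.20 to 1.52 and Trem1 from 0.10 to 0.81. Padi4 stayed lower, from -0.78 to -0.31. Under 3 other scalings (quantile, cyclic loess and each array centred on its median) Mmp9 ranged from 2.12 to 2.50, Retnlg from 2.21 to 2.45 and Padi4 from -0.76 to -0.48. The 5 genes higher without overlap remained so under each of these scalings, where the share of all kept genes was 11.3% to 17%. Fpr2 joined them under all 3, Fpr1 was lower without overlap under all 3, and Trem1 was higher without overlap when arrays were centred on their median, a scaling that moves the median of all kept genes to -0.19. Leaving out control replicate 2 gave 8 of 9 members higher without overlap, with Padi4 lower without overlap, where the share of all kept genes higher without overlap was 40.4%.

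**Figure D3:**
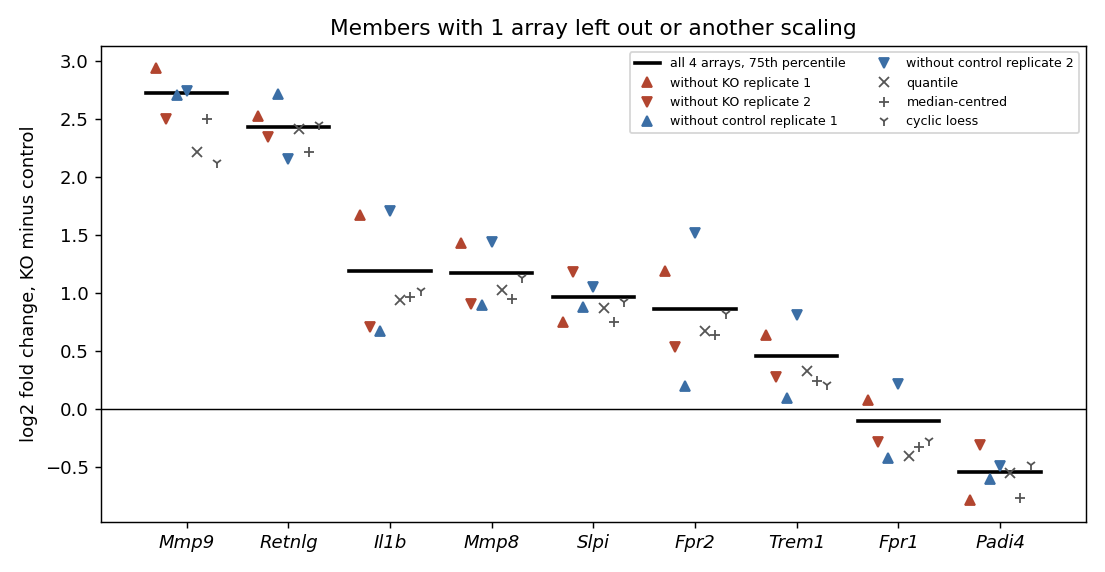
Log2 fold change of each member, knockout minus control (y axis), with all arrays and the 75th percentile scaling (black bars), with 1 array left out (triangles) and under 3 other scalings (grey marks). Mmp9 and Retnlg stay above 2 throughout, and Fpr1 lies on both sides of 0.

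The 250 bases before the annotated start are shown for the 4 genes with an entry that were higher without overlap and for Padi4, which was lower. Sequences are from RefSeq, build GRCm38.p6, and 8 of the 9 members have an entry in that table; Mmp9 has none. Capitals mark matches on either strand to 3 short motifs: TTNNGCAA for C/EBP factors, GAGGAA for PU.1 and related ETS factors, and TGANTCA for AP-1. Retnlg is chr16:48872358-48872607 on the plus strand, Mmp8 chr9:7558179-7558428 on the plus strand, Slpi chr2:164356508-164356757 on the minus strand, Il1b chr2:129371165-129371389 on the minus strand, and Padi4 chr4:140774240-140774453 on the minus strand. Bases inside the gene's annotated span are left out, 25 for Il1b and 36 for Padi4.
Retnlg: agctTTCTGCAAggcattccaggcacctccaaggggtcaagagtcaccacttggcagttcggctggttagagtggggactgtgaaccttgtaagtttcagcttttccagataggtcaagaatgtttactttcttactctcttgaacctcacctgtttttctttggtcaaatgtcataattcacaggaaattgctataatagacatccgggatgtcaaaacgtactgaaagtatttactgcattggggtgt
Mmp8: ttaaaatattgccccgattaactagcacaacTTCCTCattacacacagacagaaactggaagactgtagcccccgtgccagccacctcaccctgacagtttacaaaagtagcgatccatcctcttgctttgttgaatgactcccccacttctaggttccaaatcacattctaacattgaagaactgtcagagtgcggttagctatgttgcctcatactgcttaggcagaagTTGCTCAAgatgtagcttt
Slpi: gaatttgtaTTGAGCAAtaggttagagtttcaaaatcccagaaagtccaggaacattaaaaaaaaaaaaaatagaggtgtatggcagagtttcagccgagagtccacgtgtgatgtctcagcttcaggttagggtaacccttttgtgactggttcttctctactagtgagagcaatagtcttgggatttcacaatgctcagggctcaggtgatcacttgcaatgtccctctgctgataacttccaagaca
Il1b: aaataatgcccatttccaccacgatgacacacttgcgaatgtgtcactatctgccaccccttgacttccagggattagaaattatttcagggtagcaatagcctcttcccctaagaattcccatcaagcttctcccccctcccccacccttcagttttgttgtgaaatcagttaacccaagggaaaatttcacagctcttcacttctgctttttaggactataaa
Padi4: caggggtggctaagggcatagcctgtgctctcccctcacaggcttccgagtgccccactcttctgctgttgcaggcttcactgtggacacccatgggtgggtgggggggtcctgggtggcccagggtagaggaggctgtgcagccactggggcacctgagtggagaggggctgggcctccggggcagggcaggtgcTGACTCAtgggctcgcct
The C/EBP letters occur once each before Retnlg (TTCTGCAA), Mmp8 (TTGCTCAA) and Slpi (TTGAGCAA), and not in the windows of the other 5 members with an entry. Il1b has none of the 3 motifs in its window, although it too was higher without overlap. Of all 32851 promoter windows of that length, 9.56% hold the C/EBP letters. No match overlaps another. Those of C/EBP begin 246, 19 and 241 bases before the start. The GAGGAA letters occur before Mmp8, Fpr2 and Trem1 (23.3% of all windows), and those of AP-1 before Padi4 alone among the members (6.75%). A match describes the letters of the window, and binding was not measured.

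Other genes of late neutrophils were also mixed, with 24 of 32 higher by the mean. Kept probes covered 32 of the 34 listed, of which 17 were higher without overlap, 3 lower without overlap and 12 with overlap. The shares without overlap over all kept genes were 17.5% higher and 21% lower. The median log2 fold change was 0.61, and 0 were past the threshold over all probes. The 4 genes with the smallest unadjusted p were all higher. Wfdc21, of the same protein family as Slpi, was 5.85-fold higher (log2 95% interval 1.72 to 3.37), the glycoprotein Lrg1 4.79-fold (0.94 to 3.58) and haptoglobin (Hp), which neutrophils store in granules, 2.62-fold (0.40 to 2.37). The membrane protein gene Ifitm6 was 3.41-fold higher (0.63 to 2.92). Stefin genes, which encode inhibitors of cysteine proteases, also had large values, with Stfa2 5.50-fold higher without overlap (0.37 to 4.55), Stfa2l1 3.37-fold higher without overlap (0.40 to 3.11), and BC100530 at 5.06-fold and Stfa3 at 3.44-fold with overlapping arrays. Control signals of these stefin genes were dim, so the sizes of their folds are uncertain. They were 24.53 and 75.83 for Stfa2, 76.2 and 41.2 for Stfa2l1, 18.22 and 272.5 for BC100530, and 25.22 and 124.7 for Stfa3. Stfa2l1 was detected on 2 of 2 knockout and 1 of 2 control arrays, so it passed the filter through the knockout arrays alone. Receptor genes lay on both sides of 0. Ltb4r1, a leukotriene B4 receptor, was 2.36-fold higher without overlap (0.12 to 2.36), Pirb, an inhibitory receptor, 1.76-fold (0.08 to 1.56), and the Fc receptor gene Fcgr3 and Ptafr, the receptor for platelet-activating factor, had log2 fold changes of 0.67 and 0.29, also without overlap but with intervals that include no change. Clec4e, a lectin receptor for microbial glycolipids, was 2.85-fold lower (log2 95% interval -2.68 to -0.34), with 178.7 and 464.4 in knockout cells and 1144 and 776.7 in control cells. Ccrl2 was also lower without overlap (log2 fold change -0.46, -1.35 to 0.44). With overlapping arrays, Fcgr4, Clec4d and Il1r2 had log2 fold changes of -1.11, -0.32 and -0.04, and Tlr2 and Cd300lf had 0.09 and 0.16. The chemokine receptor Cxcr2 was 1.44-fold higher (-0.53 to 1.58), Csf3r, the receptor for G-CSF, 1.38-fold (-0.30 to 1.23), and Itgam, the integrin CD11b, 1.26-fold lower (-1.15 to 0.47), with probes that disagree in direction. Ly6g, a surface marker of mouse neutrophils, was 2.94-fold higher (0.02 to 3.09). The stefin and receptor genes, Itgam and Ly6g were named after their values were seen.

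All 10 kept genes of the specific granules were higher, 9 without overlap, with a median of 2.11, and lactoferrin (Ltf) was 10.3-fold higher. The 8 primary granule genes had a median of 0.66, with 6 higher without overlap. Among them Prtn3, a serine protease, had the largest value at 1.05. The share of all kept genes higher without overlap was 17.5%. By the medians the members (0.97) lay between the 2 lists, and no test was made between lists.

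**Figure D4:**
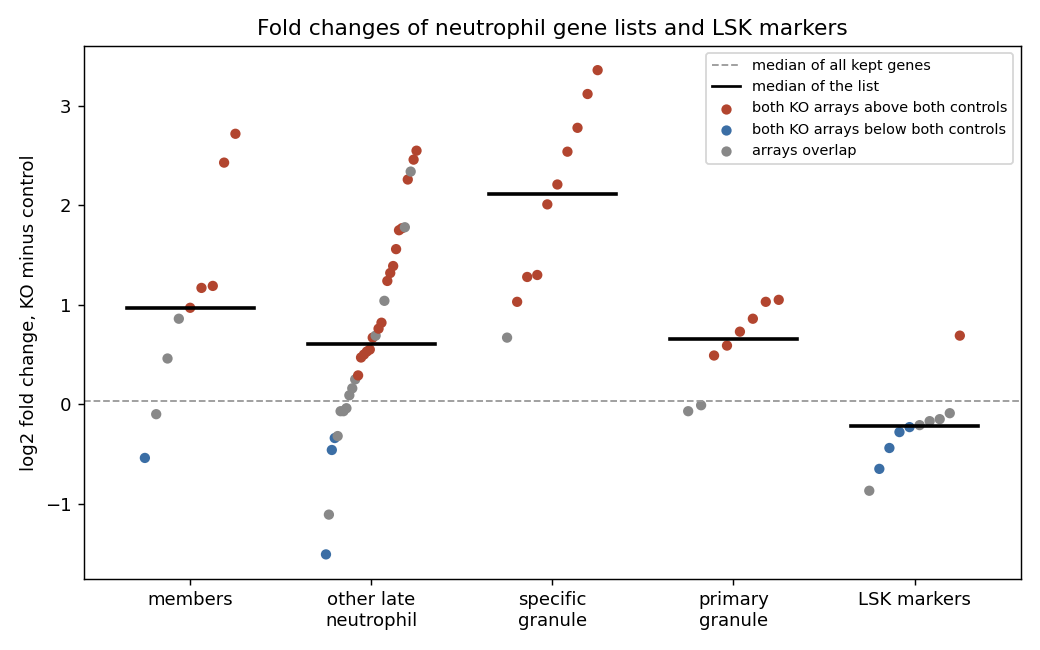
Log2 fold change, knockout minus control (y axis), of each gene of the members, other late neutrophil genes, specific granule genes, primary granule genes and LSK markers, one point a gene. Black bars are list medians (0.97, 0.61, 2.11, 0.66 and -0.22), the dashed line is the median of all kept genes (0.03), and colours show whether arrays overlap.

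Markers of the sorted cells and of other lineages were read on the same arrays. Ly6a, which encodes Sca-1, had 3700 and 2768 in knockout cells and 2094 and 2484 in control cells, and Kit had 6793 and 8270 against 13819 and 9824, so both defining genes were detected throughout. Of 10 LSK markers 9 were lower, 4 of them without overlap (21% of all kept genes were), with a median of -0.22. The higher one was Ly6a, also without overlap (log2 fold change 0.69, 95% interval -0.64 to 2.01). Of the 10, 5 were higher without EZH1 knockout replicate 2 (median -0.04) and 4 without control replicate 1 (median -0.11). The summed scaled signal of the 10 markers was 38.9 to 48.7 in knockout cells and 46.3 to 55.1 in control cells. For the lists that follow, the share of all kept genes higher without overlap was 17.5%. All 9 B-lineage markers were higher (8 without overlap, median 1.52, summed signal 8.07 to 9.46 against 5.18 to 5.56). Of 12 monocyte and macrophage markers 10 were higher (7 without overlap, median 0.78, 34.5 to 43.1 against 24.8 to 26.3), and of 8 eosinophil, basophil and mast cell markers 7 (6 without overlap, median 1.03, 7.21 to 21.1 against 4.34 to 6.53). T and NK cell markers were higher for 6 of 7 (4 without overlap, median 0.43, summed signal 25.1 to 25.6 against 17.2 to 18.6). Erythroid and megakaryocyte medians were -0.21 and -0.06, with summed signals that overlapped between the groups. For the specific granule genes the summed signal was 30.6 to 32.4 in knockout cells and 6.29 to 8.94 in control cells. That of the other late neutrophil genes overlapped between the groups, with 239 to 284 in knockout cells and 270 to 288 in control cells. Each of these lists had markers detected on all 4 arrays, and the part of cells of these types in the members' differences was not tested. In sorted cells measured as a bulk, more cells of a type and more RNA per cell cannot be told apart.

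The genes nearest to the members in pattern were found over the 4 arrays. The mean of the members, each centred on its own mean, was 0.36 and 0.65 in knockout cells and -0.73 and -0.28 in control cells. Of 19461 other kept genes, the nearest by Euclidean distance were Hmmr (0.021), Ctxn3 (0.0285), Lim2 (0.048), Tnfrsf11b (0.055) and Gm8909 (0.0614 in log2 units), none of them a granule gene of the lists. With 4 values a gene, such nearness describes these arrays only.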

How the data were processed

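Linear intensity values of each probe on 4 single-colour arrays were deposited. The submitters' processing notes name Agilent Feature Extraction, with no version or background handling stated. The authors' deposited comparison table supplied symbols, an absolute fold ratio and an unnamed test's p-value for each probe, per the file headers. In the authors' deposited table the 2 smallest p-values among the members were 0.00645 (Mmp9, ratio 6.58 up) and 0.0143 (Retnlg, ratio 5.39 up). The deposited series matrix holds log2 values for 16370 probes. Each row lay within a Euclidean distance of 2 times 0.03 of a row of the scaled intensity table. Only 3.73% of rows had all 4 values within 0.03 of the row of the same probe ID. Between 2 probes of one gene (1097 genes) mean signals correlated at 0.564 across genes in the intensity table and at -0.0048 in the matrix, so the matrix was not used by name.

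Intensities were taken to log2 (values under 1 set to 1), and each array's 75th percentile was subtracted. A probe counted as detected above the array's 20th percentile (22.8 and 87.3 in knockout cells, 12.4 and 57.6 in control cells), and 43759 probes above it in a whole group were kept. The groups were set against each other in limma 3.58.1 (R 4.3.3), two-sided, without a block, with Benjamini-Hochberg adjustment over all kept probes (2 residual and 1.78 prior degrees of freedom). A gene was represented by its brightest kept probe. The number of arrays limits precision: an exact permutation test of 2 against 2 cannot go below p = 0.333. Scripts were tested on simulated data. Members and lists were chosen with earlier results of these data known. Named genes were all members, up to 4 genes a list by smallest unadjusted p, and the 5 nearest in pattern; others are marked or given as a gene related to a member. RNA integrity numbers were 9 to 10 per the labels.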

Additional observations from a re-analysis of the deposited data

How the results depend on the processing

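Of 13 alternatives to the fit, 0 probes were past the threshold in each of the 12 that gave adjusted p-values over all probes (lowest adjusted p 0.147, with probes kept above the 40th percentile; the unadjusted counts ran from 957 to 9158 probes). The median log2 fold change of the members was 0.97 and ranged from 0.67 to 1.44 with 1 array left out and from 0.75 to 0.92 under the other scalings. The count of members higher without overlap, 5 with all arrays, ranged from 5 to 8 with 1 array left out, the 8 being without control replicate 2, and was 4 with the higher detection limit, where Mmp9 was no longer kept. The share of all kept genes higher without overlap was 17.5% with all arrays and 17% with the higher detection limit. It ran from 27.9% to 43.1% with 1 array left out, so those counts are not set against the same share. Fpr1 reversed to 0.08 when EZH1 knockout replicate 1 was left out and to 0.22 when control replicate 2 was (range -0.42 to 0.22 with 1 array left out), and no other member changed sign under any alternative. The median of the other late neutrophil genes stayed between 0.40 and 0.70, and that of the specific granule genes between 1.66 and 2.56. The labels give both groups the replicate numbers 1 and 2 without saying that they pair samples. Deviations of same-numbered arrays correlated at 0.69 across probes. With the replicate block 0 probes were past the threshold, the lowest adjusted p was 0.206, the members' median stayed 0.97, and 9158 probes had an unadjusted p under 0.05 against 2513 without it. The 95% interval then lay above 0 for Il1b (0.58 to 1.80) and Fpr2 (0.03 to 1.69) too. The planned fit on the series matrix was not run, because its probe IDs were not borne out, and the count without overlap has no value under the block. Dim signals limit Mmp9, Il1b, Mmp8, Fpr1 and Fpr2 most.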
